A study of Homo sapiens with 9 samples.

Results

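SLC38A12, earlier called TMEM104, was the 1 gene of 14884 named genes whose symbol was SLC1A, SLC3A, SLC7A, SLC36A, SLC38A or SLC43A followed by a number, the symbols of 6 amino acid transporter families. RefSeq lists 41 protein-coding genes of these families, and the other 40 had no named probeset in the platform table used here. SLC7A5, the leucine transporter taken as the marker of the group, was among those 40, so the group could not be checked against its marker and the values below are those of SLC38A12 alone. SLC7A11-AS1, a non-coding RNA gene named as antisense to SLC7A11, matched the start of the rule and is given apart, since it encodes no transporter. None of its values stands for SLC7A11.

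Amino acid transporters of the plasma membrane carry amino acids into cells and exchange them against each other, and those of the lysosome release the amino acids that protein breakdown provides. SLC7A5 imports leucine and other large neutral amino acids as a pair with the heavy chain SLC3A2, SLC1A5 exchanges glutamine, and SLC7A11 exchanges cystine for glutamate. The SLC38 family holds the sodium-coupled transporters of small neutral amino acids, and its lysosomal member SLC38A9 takes part in the signalling of arginine to the kinase complex mTORC1. SLC38A12 carries the name of this family.

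Transcripts were measured in ZR-75-1, a breast cancer cell line that carries the estrogen receptor, to ask what changes once the microRNA miR-150-5p is restored to these cells. All 9 cultures received the same lipid transfection reagent, and total RNA was taken at 48 h. The mimic group was given 50 nM of mature miR-150-5p, the negative control group 50 nM of a non-specific RNA, and the mock group the lipid with no RNA. Each group had 3 samples with 1 Affymetrix Human Gene 2.0 ST array each. All values are those of a single cell line, and the labels do not say whether the triplicate transfections were independent experiments, so p-values measure only the spread between these samples, which may be technical.

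The arrays were alike in scale, with medians over all probesets from 4.22 to 4.27 on the log2 scale. The mimic medians (4.24 to 4.27) lay slightly above the negative control medians (4.22 to 4.23). The markers gave a luminal epithelial profile, which is no test of the line's identity. ESR1, GATA3, FOXA1, KRT8, KRT18, KRT19 and EPCAM, the 7 measured of 8 listed luminal markers, had mean log2 intensities from 6.95 to 12.1, each above the median of all gene means (5.44). Their mean lay between 9.764 and 9.822 in mimic arrays, 9.665 and 9.724 in negative control arrays and 9.676 and 9.757 in mock arrays, so the mimic arrays lay above all control arrays. Of the 7, 1 rose, ESR1, the estrogen receptor. Its log2 change was 0.46 ± 0.07 against negative control (limma adjusted p = 0.0295) and 0.45 ± 0.07 against mock (limma adjusted p = 0.0406). Among all genes 0.202% and 0.168% were called higher. ESR1 was not followed under the alternatives given below. Of 10 measured markers of other cell types (2 basal or myoepithelial, 3 leukocyte, 3 endothelial and 2 fibroblast), 1 lay above that median, CD68, a lysosomal protein of macrophages, at 6.42, and 0 were called. The mean of PECAM1, VWF and KDR, the 3 endothelial markers, was also higher without overlap, at 3.28 to 3.60 in mimic arrays, against 3.18 to 3.23 in negative control arrays and 3.09 to 3.17 in mock arrays. On this mean the negative control arrays lay above the mock arrays too, a separation whose share over all genes was not counted. PECAM1 changed most (0.47 against negative control, 0.59 against mock), beside VWF (0.03 and 0.01) and KDR (0.03 and 0.14). The fibroblast mean of the mimic arrays was lower without overlap against mock (2.82 to 3.06, against 3.07 to 3.30), but overlapped with negative control. The negative control arrays (2.85 to 3.04) lay wholly below the mock arrays on this mean too, so the lower values were not particular to the mimic. Of all genes, 5.44% lay lower without overlap in mimic arrays than in mock arrays, and 3.33% did so in negative control arrays. On the higher side, mimic arrays lay without overlap above negative control arrays in 8.42% of all genes and above mock arrays in 7.21%. The part of these marker levels in the values below was not tested.

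SLC38A12 gave a signal above that of most genes in every group. Its log2 intensity was 8.40, 8.26 and 8.03 in mimic arrays, against 8.09, 8.02 and 8.18 in negative control arrays and 8.08, 8.23 and 7.88 in mock arrays. Mimic replicates 1 and 2 were the highest of the 9 arrays and mock replicate 3 was the lowest, while mimic replicate 3 lay below negative control replicates 1 and 3 and mock replicates 1 and 2. The 3 groups therefore overlapped with each other.

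**Figure D1:**
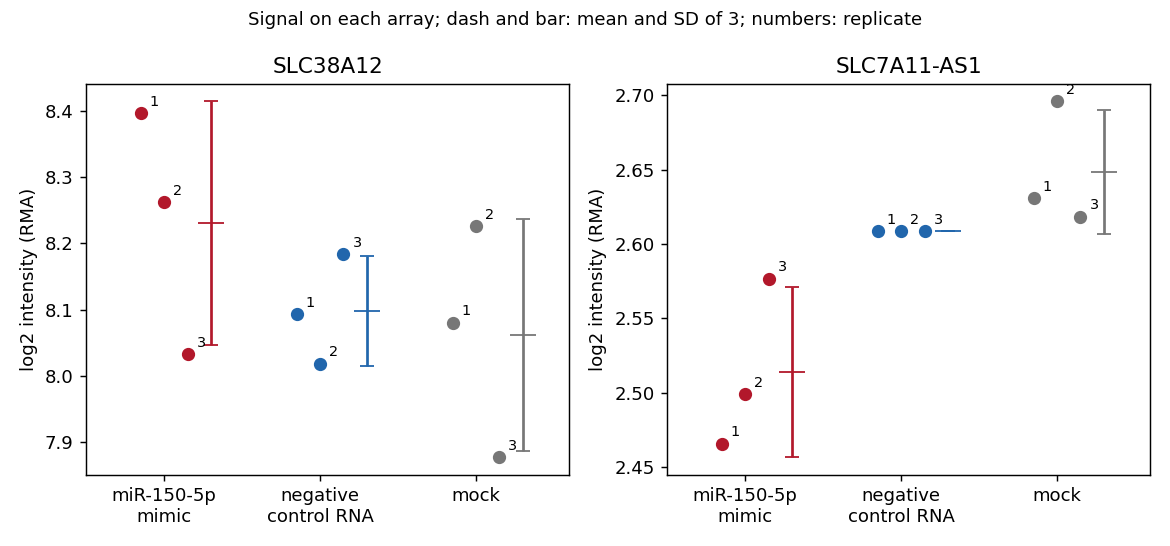
Log2 intensity of SLC38A12 (left) and SLC7A11-AS1 (right) on each of the 9 arrays, by group. Points are arrays with their replicate number, and the dash and bar to the right of each group are its mean and SD (n = 3). For SLC38A12 the groups overlap, while the 3 mimic arrays of SLC7A11-AS1 lie between 2.47 and 2.58, below the 6 control arrays, on a narrow scale.

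The mean of SLC38A12 was 8.23 ± 0.18 in mimic arrays, 8.10 ± 0.08 in negative control arrays and 8.06 ± 0.17 in mock arrays (SD, n = 3 each). The means were thus ordered mimic above negative control above mock. They covered 0.17, less than the range within mimic arrays (0.36) or within mock arrays (0.35). The range within negative control arrays was slightly smaller than that, at 0.16. Between 85.1% and 90.7% of genes had a lower value than SLC38A12 on the same array. This places its signal away from the dim end of the scale, where background weighs most, and is no measure of abundance relative to other genes. Its spread within groups, a pooled SD of 0.15, was larger than that of 65.0% of genes, against a median of 0.13 over all genes.

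Mimic was set against negative control to separate miR-150-5p from an unrelated RNA at the same dose. SLC38A12 did not pass: its log2 change was 0.13 ± 0.11 (SE), or 1.10-fold, with a 95% interval from -0.13 to 0.39 and a limma adjusted p = 0.680 over the 14884 genes. On the linear scale the interval runs from 0.917-fold to 1.31-fold. The background of this comparison was 82 genes called, or 0.551% (0.202% higher and 0.349% lower), and SLC38A12 was not among them. An absolute change larger than that of SLC38A12 was found in 36.7% of genes. The exact permutation test of its 3 arrays against 3 gave p = 0.3 (two-sided), where the smallest p this design allows is 0.1.

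The change that SLC38A12 would have needed for a call was larger than the one measured. The highest unadjusted p among the 82 genes called was 0.000271, which at the standard error of SLC38A12 corresponds to a log2 change of 0.64, or 1.56-fold. This limit belongs to the fit and moves with the genes tested: it was 0.47 in the fit of genes above the median only and 1.19 in the fit of all probesets, on the same 9 arrays.

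Mimic was also set against mock, the lipid without RNA. The 3 mimic arrays are the same as in the comparison above, so the estimates are not independent of each other. SLC38A12 changed by 0.17 ± 0.11 (SE, n = 3 each) on the log2 scale, or 1.12-fold, with a 95% interval from -0.09 to 0.43 and a limma adjusted p = 0.638, and did not pass. The interval corresponds to 0.941-fold to 1.34-fold. Over all genes 45, or 0.302%, were called (0.168% higher and 0.134% lower), and 24.3% had a larger absolute change than SLC38A12. Here a call in this fit would have needed a log2 change of 0.69, or 1.62-fold. That limit was 0.53 in the fit of genes above the median only and 1.96 in the fit of 2 groups only. The exact permutation test gave p = 0.4 (two-sided).

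Negative control against mock shows what an unrelated RNA does beyond the lipid. SLC38A12 changed by 0.04 ± 0.11 (SE, n = 3 each), with a 95% interval from -0.22 to 0.29 and a limma adjusted p = 0.988. No gene was called (0%) by limma in this comparison, while 622 genes, or 4.18%, had an unadjusted p under 0.05. The exact permutation test of SLC38A12 gave p = 0.8 (two-sided).

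The size of these estimates rested on single arrays. With 1 array left out, SLC38A12 did not pass either. A call in those fits would have needed a log2 change of 0.59 to 1.09 against negative control and 0.95 to 1.68 against mock. These limits lie above every estimate below, so not passing there adds little. Against negative control, the log2 change was 0.05 without mimic replicate 1 and 0.23 without mimic replicate 3. Against mock it was 0.09 without mimic replicate 1, 0.27 without mimic replicate 3, 0.08 without mock replicate 3 and 0.25 without mock replicate 2. All stayed above 0, and the lowest adjusted p under any of the 17 alternatives was 0.463 against negative control and 0.480 against mock. The difference of negative control from mock was -0.055 without mock replicate 3 and -0.0056 without negative control replicate 3, so it had no settled sign.

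**Figure D2:**
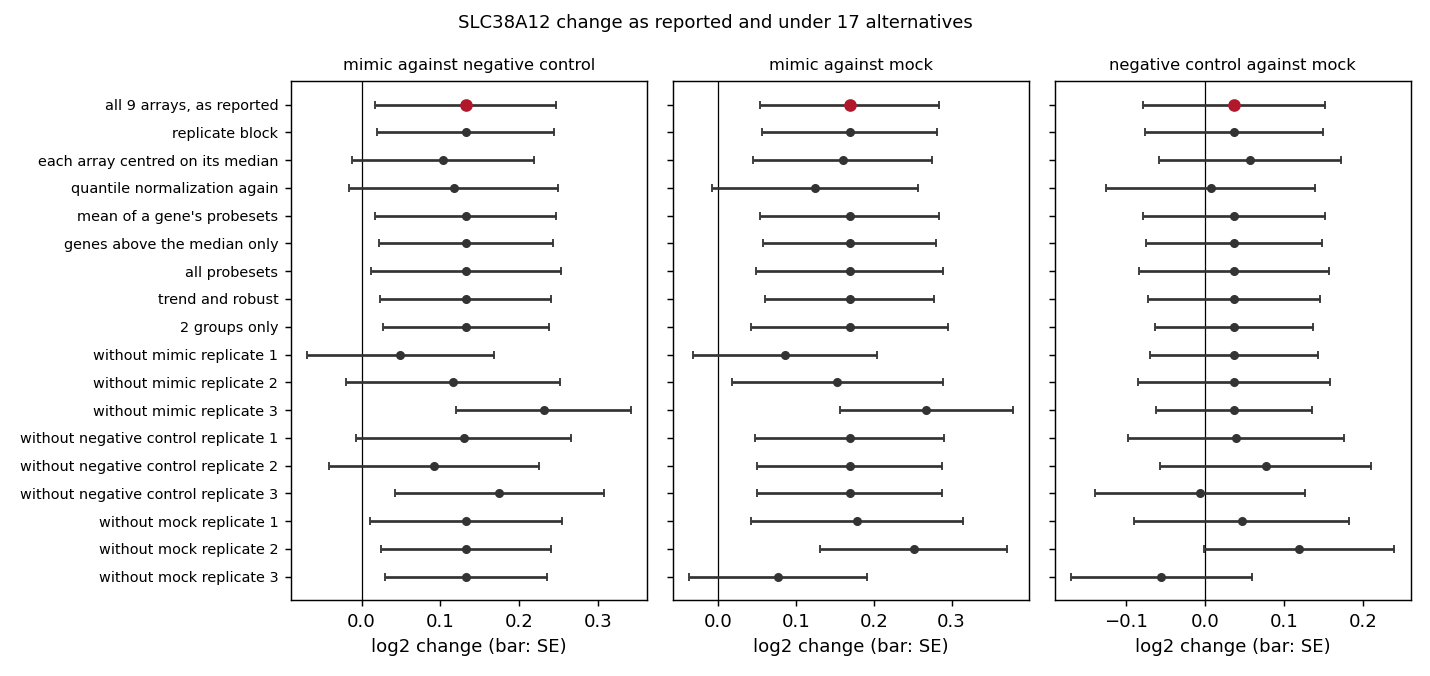
Log2 change of SLC38A12 in the 3 comparisons, as reported (red) and under 17 alternatives (black), 1 per row; bars are limma's standard errors and the vertical line marks no change. The estimates against negative control lie between 0.05 and 0.23 and those against mock between 0.08 and 0.27, while those of negative control against mock lie on either side of 0.

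SLC7A11-AS1 had a signal near the bottom of the scale. Its log2 intensity was 2.47, 2.50 and 2.58 in mimic arrays, against 2.61 on each of the 3 negative control arrays and 2.63, 2.70 and 2.62 in mock arrays. The 3 mimic arrays were lower than the 6 control arrays without overlap, by amounts that were small on this scale. The 3 negative control arrays held an identical value, as 331 genes of the table did in that group, so their own spread was 0.

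The log2 change of SLC7A11-AS1 was -0.09 ± 0.06 (SE, n = 3 each) against negative control, with a limma adjusted p = 0.582. Against mock it was -0.13 ± 0.06, with a limma adjusted p = 0.499. Neither passed. Mimic arrays without overlap on the lower side were found for 8.01% of all genes against negative control and for 5.44% against mock. The negative control arrays were lower than the mock arrays without overlap too, as in 3.33% of all genes, with a log2 change of -0.04 ± 0.06 (limma adjusted p = 0.976). Between 3.39% and 6.21% of genes had a lower value on the same array, and no source used here gives the strand that its probes read.

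SLC66A1, a lysosomal exporter of cationic amino acids, was the only measured gene of 23 listed amino acid transporters of other families. Its log2 intensity was 6.42, 6.48 and 6.31 in mimic arrays, against 6.16, 6.14 and 6.13 in negative control arrays and 6.10, 6.10 and 6.11 in mock arrays. The mimic arrays lay above the 6 control arrays, which were close together; arrays without overlap on the higher side were found for 8.42% of all genes against negative control and 7.21% against mock. Its log2 change of 0.26 ± 0.07 against negative control (SE, n = 3 each, limma adjusted p = 0.138) and of 0.30 ± 0.07 against mock (limma adjusted p = 0.144) did not pass. The negative control arrays of SLC66A1 lay above its mock arrays without overlap too, with a log2 change of 0.04 ± 0.07 (limma adjusted p = 0.976). The share of all genes that did so was not counted. SLC66A1 and SLC38A12 each had a positive change in both comparisons of the mimic, which share the mimic arrays, and neither passed. The median change of all genes was 0.01 in each comparison, and a shared change of these genes was not tested.

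Genes that sense amino acids or act on them were counted beside SLC38A12. Their lists were chosen with earlier results of these data known, so the counts describe the lists and are no test of a pathway. Of 26 measured of 36 genes of amino acid sensing by mTORC1, 1 rose and 0 fell against negative control, as against mock, with median log2 changes of -0.0001 and 0.03, where all genes had medians of 0.01 in each comparison. Over all genes 0.202% and 0.168% were called higher. The gene that rose was SESN3, a sestrin, by 0.95 ± 0.10 (limma adjusted p = 0.0106) and 0.84 ± 0.10 (0.0224). Its call was lost in 3 of 17 alternatives against negative control, among them the fit without mimic replicate 1, and in 11 of 17 against mock, among them those without any 1 mimic or mock array or negative control replicate 1 or 3. MTOR, the kinase itself, changed by 0.07 ± 0.08 against negative control (limma adjusted p = 0.759).

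Of 16 measured of 22 genes of the ATF4 axis, the transcriptional response to amino acid shortage, 0 rose and 2 fell in each comparison of the mimic, with medians of -0.10 against negative control and -0.09 against mock, beside the all-gene median of 0.01 in each. Over all genes 0.349% and 0.134% were called lower. This list too was chosen with earlier results known, so its count set beside that share is no test of the axis. Those that fell were enzymes of serine synthesis, PSAT1 with log2 changes of -0.84 ± 0.10 (limma adjusted p = 0.0118) and -0.66 ± 0.10 (0.0359), and PHGDH with -0.72 ± 0.09 (limma adjusted p = 0.0153) and -0.70 ± 0.09 (0.0224). Against negative control the call of PSAT1 was lost in 4 of 17 alternatives, among them those without mimic replicate 1 or 2, and that of PHGDH in 8, among them those without mimic replicate 1 or 2 or any 1 negative control array. Against mock each was lost in 11 of 17: both without mimic replicate 1 or 2, negative control replicate 1 or 3 or any 1 mock array, PSAT1 also without mimic replicate 3 and PHGDH also without negative control replicate 2. ATF4 itself changed by 0.05 ± 0.07 against negative control (limma adjusted p = 0.822). The list of 28 amino acid enzymes, 13 of them measured, does not hold PSAT1 and PHGDH, which were counted only above. Among its measured genes 0 passed in either comparison, with medians of -0.07 and -0.03. ASNS, asparagine synthetase, which is in both lists, had the lowest p of the enzymes against negative control (-0.70 ± 0.18, limma adjusted p = 0.154). In negative control against mock 0 genes of these lists passed.

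**Figure D3:**
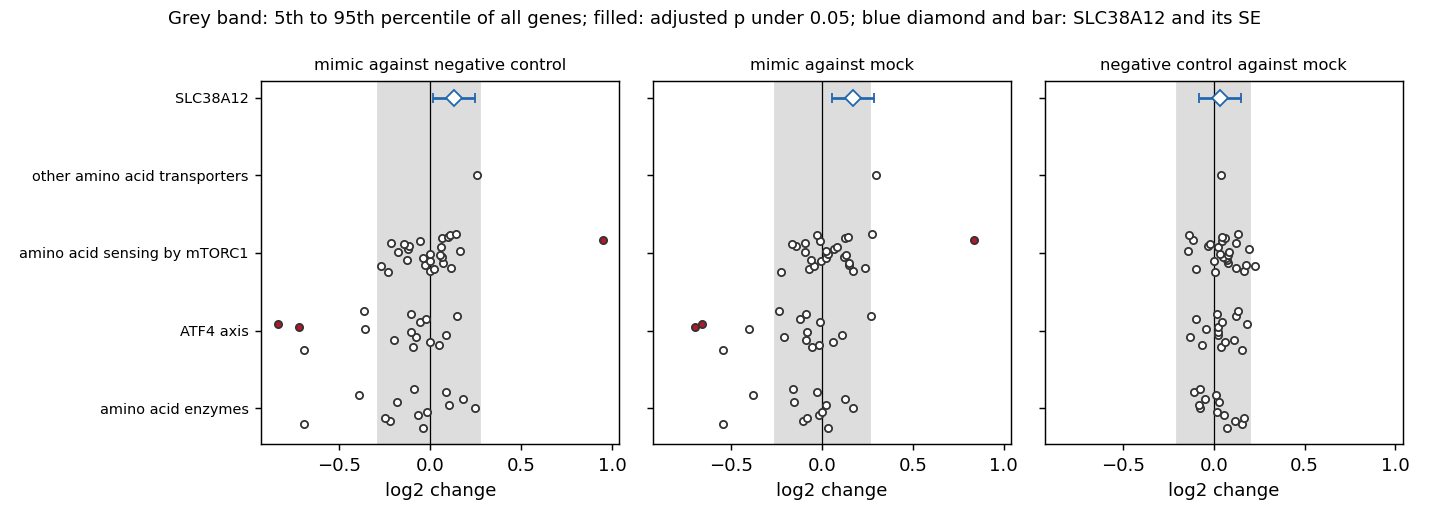
Log2 changes of SLC38A12 (blue diamond, bar: SE) and of the measured genes of 4 lists (circles, filled where the adjusted p was under 0.05) in the 3 comparisons; the grey band holds the changes of all genes from the 5th to the 95th percentile. SLC38A12 lies inside the band in each comparison, at 0.13, 0.17 and 0.04, while SESN3 lies to the right of it and PSAT1 and PHGDH lie to the left in the comparisons of the mimic. Genes that were not called lie outside it too, among them ASNS to the left (-0.70 against negative control, -0.54 against mock) and SLC66A1 to the right against mock (0.30).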

How the data were processed

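The deposited table gives log2 intensities of 53617 probesets on 9 arrays, made by the authors with RMA, per the submitters' processing notes; RMA corrects background, equalises arrays and summarises probes, so small differences in scale between arrays are largely removed. No source used here gives its version, the annotation or the genome build. The platform's annotation named 16098 probesets with 1 symbol and left 37519 unnamed here; all 16098 identifiers matched RefSeq genes of the human assembly, used for names only. The brightest probeset stood for a gene, which left 14884 genes; SLC38A12 has 1 probeset.

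The values were fitted with limma 3.58.1 in R 4.3.3 (lmFit, eBayes), 1 mean per group over all 9 arrays with 6 residual degrees of freedom. P-values are two-sided, adjusted by Benjamini-Hochberg over all genes, with a threshold of 0.05. The procedure was tested on simulated data. The deposited values come with no detection call. Separately, the number of arrays limits the precision. The design text names no block, so replicate numbers were not taken as pairs. Deviations of same-numbered arrays from their group means correlated between -0.06 and 0.13 in 9 pairs, 2 of them above 0.1. Each mimic array correlated best with the negative control array of its own number, at 0.106, 0.0265 and 0.0589. A fit with a replicate block is given below. Genes named were every gene of the rule and, from the lists, those that passed or had the lowest p; MTOR and ATF4, and CD68 among the markers, were named after their values were seen. The gene families and lists were chosen with earlier results of these data known.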

Additional observations from a re-analysis of the deposited data

How the results depend on the processing

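SLC38A12 did not pass in any of the 3 comparisons under any of 17 alternatives: the replicate block, 2 scalings, other probeset rules, a filter on dim genes, a trend and robust spread, 2 groups only, and leaving out each array. Its log2 change had the same sign throughout against negative control and mock, from 0.05 to 0.23 and from 0.08 to 0.27 when 1 array was left out. For negative control against mock that range was -0.055 to 0.12; it was -0.055 without mock replicate 3 and -0.0056 without negative control replicate 3, and these sign changes come from leaving out 1 array. With the replicate block its changes were 0.13, 0.17 and 0.04 with adjusted p = 0.660, 0.616 and 0.985; an array matched its own number best in 5 of 9 pairs, and the block changed no call of SLC38A12. With each array centred on its median, SLC38A12 changed by 0.10 against negative control and 0.16 against mock. SLC7A11-AS1 then changed by -0.12 and -0.14. The sign of SLC7A11-AS1 was negative in each comparison under the 16 alternatives that tested it. For SESN3, PSAT1 and PHGDH, for which the alternatives were added after seeing the data, the highest adjusted p was 0.0632, 0.0746 and 0.0910 against negative control and 0.122, 0.179 and 0.146 against mock. With the replicate block PHGDH lost its call against negative control and all 3 lost it against mock. The background counts were less stable. For mimic against negative control 82 genes became 16 with the replicate block, 263 among genes above the median only, 6 over all probesets, 169 with trend and robust spread, 8 with 2 groups only, and 7 to 121 with 1 array left out. For mimic against mock 45 became 3 with the replicate block, 102 among genes above the median only, 3 over all probesets, 1 with 2 groups only, and 1 to 10 with 1 array left out. Negative control against mock gave 0 throughout. The cause of these shifts was not tested, beyond the number of genes or arrays that an alternative changes by construction. The table holds no background value, so signal over background could not be given for SLC38A12.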
